A study of Mus musculus with 6 samples.

Results

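The major urinary proteins (MUPs) are encoded by an array of closely related Mup genes, and 10 of them, Mup1, Mup3, Mup7, Mup9, Mup11, Mup12, Mup15, Mup16, Mup17 and Mup20, were followed here in liver RNA sequencing. Their rows were found by Ensembl gene identifier among the 49671 genes of the count table, and all 10 were present. The 10 genes were chosen by their measured values in the comparison described here, so their differences between genotypes are a description, given with no p-value, and counts of calls among them support nothing. The study asked what the mitochondrial enzyme SHMT2, which splits serine to supply one-carbon units, does in the liver of mice with diet-induced fatty liver disease. The 6 livers came from 3 control mice with a floxed Shmt2 allele (SHMT2 fl/fl, labelled WT) and 3 mice that also carried Albumin-Cre, which deletes the floxed exons in hepatocytes (SHMT2 HKO, labelled KO). All were male C57BL/6J mice that were put on the AMLN diet, which combines high fat with fructose and cholesterol, when 4 weeks old, stayed on it for 18 weeks and were sampled at 22 weeks. Cells other than hepatocytes keep the enzyme in this model, and a group with Cre and no floxed allele was not analysed here. The labels number the mice within each genotype and give no litter or batch, so the spread below is the spread between the 3 livers of a genotype, which are called fl/fl 1 to 3 and HKO 1 to 3 by the label's number.

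MUPs are small secreted carrier proteins of the lipocalin family. Hepatocytes make them, mature males most of all, and they pass through the blood into the urine, where they hold and slowly release volatile pheromones and mark an individual's scent. Their transcription in the male liver depends on the pulsed release of growth hormone and on the transcription factor STAT5b, and glucocorticoids also act on it. Mup20 encodes darcin, a male pheromone that makes a male's scent attractive and memorable to females, and Mup3 encodes another MUP that differs clearly in sequence from the central group. The other 8 genes belong to that central group of near copies.

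The array spanned chr4:59956804-62150863 of GRCm38 and held 48 annotated Mup genes, of which 22 were protein coding and 26 were pseudogenes. All 10 genes lay on the minus strand, with Mup7 (chr4:60066469-60070475) nearest to the start and Mup20 (chr4:62050234-62054158) and Mup3 (chr4:62083476-62087342) near its end. The coding sequence in the annotation was 540 bases for Mup1, Mup7, Mup9, Mup12, Mup15, Mup16 and Mup17, 543 bases for Mup11 and Mup20, and 552 bases for Mup3. The 8 central genes were 98.3 to 99.6% identical to each other over the coding sequence, with a median of 99.1% over 28 pairs. Mup20 was 90.1 to 91.3% and Mup3 82.1 to 83.3% identical to them, and Mup3 and Mup20 were 86.6% identical to each other.

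A stretch of 60 coding bases in exon 2 of 7, the stretch inside an exon where Mup3 and Mup20 together depart most from Mup7, shows how alike these genes are. Capitals mark bases that differ from Mup7, the stretch begins at coding base 121 of Mup7, and the positions in GRCm38 on the minus strand are chr4:60069783-60069842 for Mup7, chr4:60501332-60501391 for Mup1, chr4:61595243-61595302 for Mup17, chr4:62053530-62053589 for Mup20 and chr4:62086850-62086909 for Mup3.
Mup7: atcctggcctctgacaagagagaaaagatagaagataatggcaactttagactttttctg
Mup1: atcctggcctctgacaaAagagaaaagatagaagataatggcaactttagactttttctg
Mup17: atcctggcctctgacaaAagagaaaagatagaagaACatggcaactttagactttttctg
Mup20: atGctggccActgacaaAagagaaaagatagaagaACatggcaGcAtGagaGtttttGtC
Mup3: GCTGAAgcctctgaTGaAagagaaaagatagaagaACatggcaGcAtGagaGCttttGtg
Over these 60 bases Mup1 differed from Mup7 at 1 base and Mup17 at 3, against 11 for Mup20 and 17 for Mup3. Mup9, Mup11, Mup12 and Mup15 had the same 60 bases as Mup1, and Mup16 differed from Mup7 at 2.

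This likeness sets what the counts can say. The study sequenced paired reads and counted those that hit a single gene, so a pair that matched several Mup genes equally well could be assigned to none of them. The windows below stand for one read and do not allow for its mate, which may fall in a stretch of its own gene. Of all windows of 150 bases, the length of one read, along the main transcript of each gene, 68.9% were found in no other annotated gene for Mup20 and 59.6% for Mup17, and Mup3 shared none with any other gene. The share was 9.28% for Mup15 and lay between 17.5% for Mup1 and 27.6% for Mup16 in the other 6 genes. All other genes that held such a window were Mup genes or Mup pseudogenes, up to 15 of them for Mup7, Mup9, Mup11 and Mup16. Mup20 shared windows with a single other gene, the pseudogene Mup-ps19, at 31.1% of its windows. The values of Mup3 and Mup20 are therefore the firmest of the 10, and those of the central genes are uncertain as levels of a single gene.

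**Figure D1:**
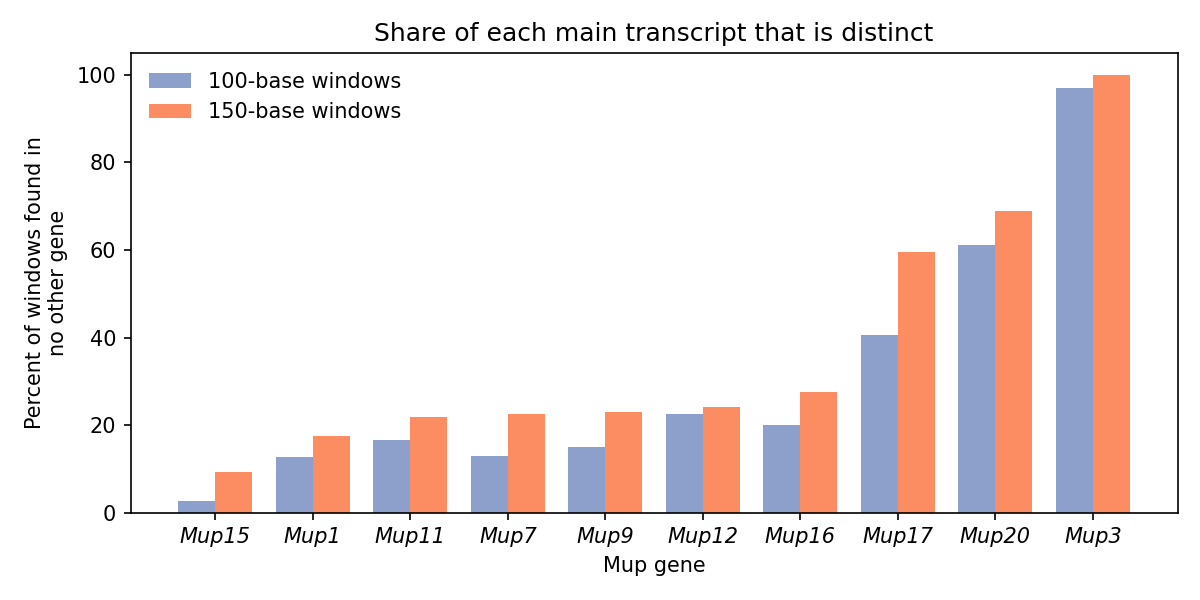
Percent of windows of 100 or 150 bases along the main transcript of each Mup gene that occur in no other annotated gene, on a linear axis from 0. Mup15 is lowest, at 2.66% and 9.28%, and Mup3 highest, at 97.1% for 100 bases and every window for 150 bases.

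RefSeq promoter entries on GRCm38.p6 with 250 bases before and 50 after the start site matched 6 of the 10 genes (Mup3, Mup7, Mup9, Mup11, Mup15 and Mup17). The 90 bases that end with the TATA-like box are shown for Mup3 (chr4:62087320-62087409) and for the central genes Mup9 (chr4:60421975-60422064) and Mup17 (chr4:61595849-61595938), all on the minus strand, because the genes they belong to lie far apart in level. Capitals mark the TATA-like box.
Mup3: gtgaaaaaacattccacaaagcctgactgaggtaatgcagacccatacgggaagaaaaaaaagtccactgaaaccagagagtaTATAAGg
Mup9: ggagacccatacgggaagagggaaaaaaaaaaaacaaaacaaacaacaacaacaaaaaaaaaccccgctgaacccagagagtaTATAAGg
Mup17: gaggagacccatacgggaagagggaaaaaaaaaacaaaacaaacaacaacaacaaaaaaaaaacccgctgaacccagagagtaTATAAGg
An unbroken run of A and C on the gene's strand was 44 bases long in Mup9 and 42 in Mup17 and 8 in Mup3, and a run of 40 bases or more occurred in 0.116% of 32851 promoters. The limit of 40 was taken from these sequences, as the shortest run among Mup9, Mup15 and Mup17, whose promoters are among those counted. The letters TATAAG, searched after the sequences were seen, stood in the windows of 5 of the 6 genes, all but Mup7, and in 7.43% of all promoters. They began 29 bases before the annotated start site in Mup9, 23 in Mup15 and Mup17 and 9 in Mup3, and at the start site in Mup11. The windows therefore do not cover the same stretch of each gene, and a motif missing from a window may lie outside it. Of the motifs searched on both strands, none of the 6 windows held TTCNNNGAA, the core bound by STAT5 (8.30% of all promoters), TTGCNNAA, bound by C/EBP factors (10.8%), CAAAGTCCA, bound by HNF4 (0.475%), or TATAAA (13.6%).

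The libraries held 23090837 to 34089722 counts on genes. Shmt2, the check of the labels, measured 93.8 to 109 CPM (counts per 1000000 counts, with library sizes scaled by edgeR's trimmed mean of M values, TMM) in SHMT2 fl/fl and 19.3 to 28.2 CPM in SHMT2 HKO livers. Summed CPM of 10 hepatocyte markers ranged from 58067 to 70970 in SHMT2 fl/fl and from 69509 to 109826 in SHMT2 HKO livers. Of the 10, 2 (Ttr and Apoc3) rose and none fell in edgeR's quasi-likelihood test at a Benjamini-Hochberg adjusted p under 0.05. At an unadjusted p under 0.05, 5 were higher and 1 was lower. Ttr, at an edgeR adjusted p of 0.0498, overlapped between genotypes, with 3929 CPM in HKO 3 and 3997 CPM in fl/fl 3. Over all tested genes 12.5% were called higher and 16.5% lower. All 6 cholangiocyte markers, 5 of 6 T cell, 5 of 8 stellate cell and 3 of 8 macrophage markers fell, and 1 stellate cell, 2 macrophage and 2 of 6 endothelial markers rose. Their summed CPM ranged from 955 to 1186 in SHMT2 fl/fl against 128 to 245 in SHMT2 HKO livers for cholangiocytes, 17.9 to 22.2 against 4.10 to 6.66 for T cells, 1213 to 1256 against 260 to 692 for stellate cells, 533 to 738 against 425 to 518 for macrophages and 160 to 185 against 227 to 265 for endothelial cells. Of the B cell (4), neutrophil (2) and pancreas (1) markers tested none passed, and the pancreatic markers Cpa1, Prss2 and Ctrb1 had 0 to 3 counts in all. Abundant markers weigh most in these sums, so the sums do not measure amounts of cells. In fl/fl 1, Alb gave 34793 of the 58067 CPM of hepatocyte markers and Lyz2 387 of the 723 CPM of macrophage markers. The part of these other cells in the Mup values was not tested, and in whole liver a larger share of hepatocytes and more Mup RNA per hepatocyte cannot be told apart. HKO 1 stood apart from the other livers in Xist, the RNA of the inactive X chromosome, at 10.1 CPM against 0.39 to 1.35 CPM, while the 4 Y-linked genes examined were present in every liver. Whether RNA of a female animal contributed to this library was not tested. HKO 1 was also the liver with the highest value of all 10 Mup genes, so values without it are given beside the results.

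Mup20 was the most abundant Mup gene in control livers and the only one of the 10 whose groups overlapped. It measured 3925, 2441 and 2532 CPM in fl/fl 1, 2 and 3, and 6620, 1949 and 5904 CPM in HKO 1, 2 and 3. HKO 2 lay below every control liver, whereas HKO 1 and HKO 3 lay above every one of them. The log2 fold change, HKO over fl/fl, was 0.70 with an SE of 0.43, and 0.41 without HKO 1. Scaled by the ERCC spike-in RNA in place of TMM it was 0.04.

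Mup3 was the second most abundant of the 10 genes in control livers and showed the clearest separation among the abundant ones. It measured 435, 212 and 338 CPM in fl/fl 1, 2 and 3, and 11171, 4029 and 2535 CPM in HKO 1, 2 and 3. Every SHMT2 HKO liver was above every control liver, and the lowest of them, HKO 3, stood 7.72-fold above the control mean. The log2 fold change was 4.17 with an SE of 0.60, and 3.32 without HKO 1. Per kilobase of exon, Mup20 had 3196 CPM and Mup3 308 CPM in control livers, against 5198 CPM and 5535 CPM in SHMT2 HKO livers. This level allows for the length of a gene and not for reads shared with other genes, which were not counted. Among 49412 genes ranked on that level, Mup20 went from place 11 to 13 and Mup3 from place 134 to 11.

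The most abundant of the central genes in SHMT2 HKO livers was Mup7. It measured 2.74, 1.95 and 3.62 CPM in fl/fl 1, 2 and 3, and 2247, 135 and 43.3 CPM in HKO 1, 2 and 3. The genotypes did not overlap, but HKO 1 held 25.2 times the mean of the other SHMT2 HKO livers, the widest gap of the 10 genes. The log2 fold change was 8.18 with an SE of 1.75, and 4.99 without HKO 1. Its place by CPM per kilobase, which does not allow for shared reads, moved from 8330 to 70.

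Mup17 and Mup15 came next. Mup17 measured 1.49, 0.83 and 0.57 CPM in the control livers and 675, 37.9 and 27.0 CPM in HKO 1, 2 and 3. Its log2 fold change was 7.97 with an SE of 1.64, and 5.05 without HKO 1. Mup17 is the central gene with the largest share of windows of its own, so its counts are the least shared of that group. Mup15, the gene with the smallest such share, measured 1.71, 0.71 and 0.89 CPM in control livers and 482, 39.7 and 33.6 CPM in SHMT2 HKO livers. Its log2 fold change was 7.35 with an SE of 1.39, and 5.01 without HKO 1. In both genes HKO 2 and HKO 3 lay close together and HKO 1 far above them.

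Mup11 showed the same order at a lower level, with 1.22, 0.53 and 0.96 CPM in the control livers and 251, 13.2 and 9.75 CPM in HKO 1, 2 and 3. The log2 fold change was 6.61 with an SE of 1.57, and 3.62 without HKO 1. The 5 genes Mup3, Mup7, Mup11, Mup15 and Mup17 had at least 10 counts in every liver, as did Mup20. The remaining 4 did not, and their control values rest on few counts.

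Mup1, a MUP found in the circulation as well as in urine, had 9, 4 and 9 counts in fl/fl 1, 2 and 3 and 1040, 97 and 54 counts in HKO 1, 2 and 3. In CPM these were 0.22, 0.15 and 0.23 in control and 44.1, 4.91 and 2.12 in SHMT2 HKO livers. Mup16 had 0.42, 0.30 and 0.23 CPM in control and 66.3, 6.12 and 2.12 CPM in SHMT2 HKO livers. Both genes separated the genotypes without overlap. Mup12 had 0.39, 0.19 and 0.42 CPM in control and 31.3, 5.46 and 1.30 CPM in SHMT2 HKO livers, and HKO 3 was within 3.91-fold of the control mean. Mup9 had 14, 1 and 1 counts in fl/fl 1, 2 and 3 and 673, 42 and 39 counts in HKO 1, 2 and 3. For Mup9 the values of fl/fl 2 and 3 were under the limit of 3 counts, so its size of change rests on the 14 counts of fl/fl 1. The log2 fold changes of Mup1, Mup16, Mup12 and Mup9 ranged from 5.19 to 6.34 with SEs of 1.21 to 1.52, and without HKO 1 from 3.27 to 4.06.

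**Figure D2:**
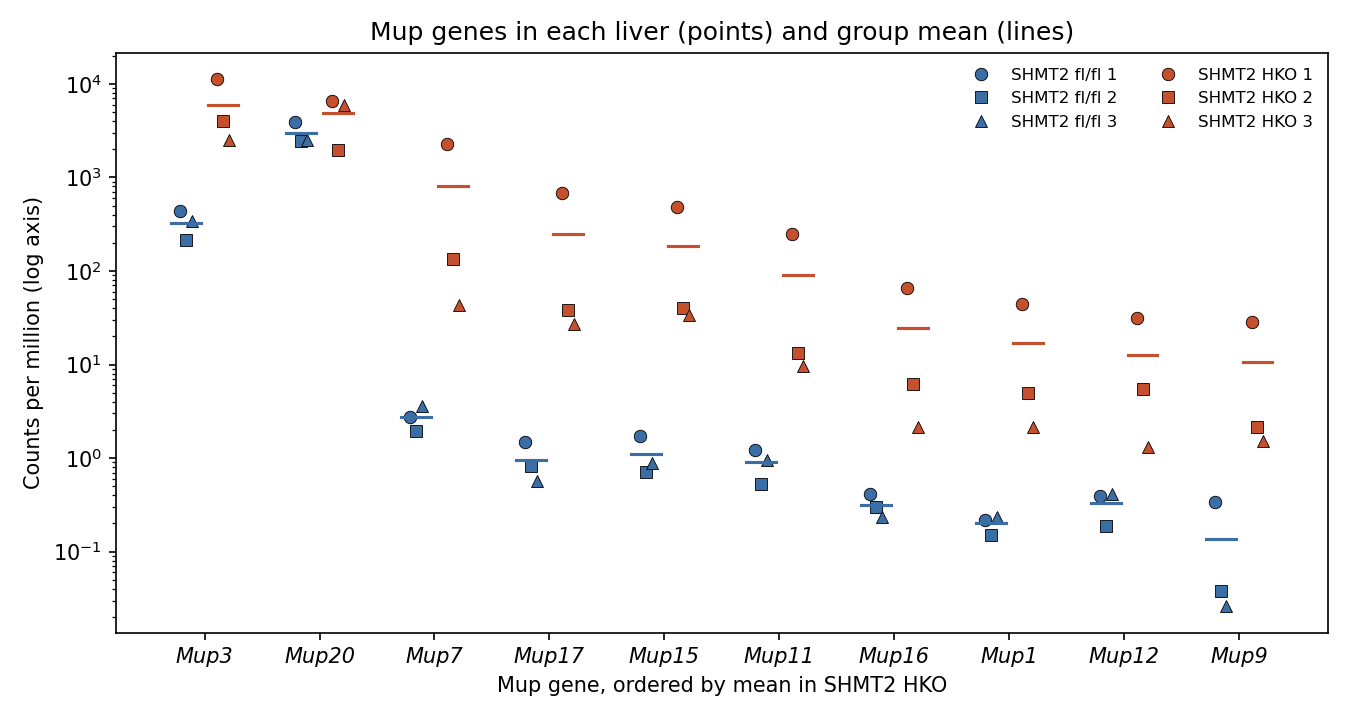
CPM of each of the 10 Mup genes on a log axis, for the 3 SHMT2 fl/fl livers (blue) and the 3 SHMT2 HKO livers (red), with the group means as lines. Mup20 is the only gene whose points overlap between genotypes, and HKO 1 (red circle) is the highest point of every gene.

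All 10 genes passed the filter on low counts, and 9 of them, all but Mup20, were called higher in SHMT2 HKO livers in edgeR's quasi-likelihood test over all genes, where 12.5% of the 16089 tested genes were called higher and 16.5% were called lower. In the same 9 genes every SHMT2 HKO liver was above every control liver, which held for 21.9% of tested genes, while every SHMT2 HKO liver was below every control liver in 25.0%. These genes were chosen for that contrast, and nothing is read from the counts. The count of called genes was 9 of 10 without HKO 1 and 10 without HKO 2, but 3, 1 and 2 without fl/fl 1, 2 and 3.

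The counts of the 10 genes were also summed. Reads shared between paralogs were counted for none of them, so the sum misses these reads too. The sum was 4369, 2658 and 2877 CPM in fl/fl 1, 2 and 3, and 21615, 6223 and 8560 CPM in HKO 1, 2 and 3. Every SHMT2 HKO liver was above every control liver, and the means were 3301 ± 931 and 12133 ± 8295 CPM (SD, n = 3 each), a ratio of 3.68 (log2 1.88). HKO 1 held 2.92 times the mean of HKO 2 and HKO 3, and without it the log2 ratio was 1.17. With ERCC scaling the log2 ratio was 0.97, and with library size alone it was 1.42. ERCC counts made up 1.42 to 1.84% of all counts in control livers and 2.75, 2.31 and 1.35% in HKO 1, 2 and 3. Set against ERCC counts the groups overlapped. HKO 2 had 123004 summed Mup counts and 583318 ERCC counts, whereas fl/fl 1 had 178788 and 508259. The 10 genes took 0.306 to 0.527% of all gene counts in control livers and 0.499 to 1.75% in SHMT2 HKO livers, where the groups overlapped, since HKO 2 at 0.499% was under fl/fl 1.

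Without Mup20 the sum of the other 9 genes was 444, 217 and 345 CPM in control livers and 14996, 4274 and 2656 CPM in HKO 1, 2 and 3. The lowest SHMT2 HKO liver stood 7.92-fold and the highest 44.7-fold above the control mean, and the ratio of the means was 21.8 (log2 4.45), or 10.4 (log2 3.37) without HKO 1. The order of the livers was not that of Mup20, in which HKO 3 stood close to HKO 1 and HKO 2 was lowest of all. The sum of all 49 annotated Mup genes and pseudogenes had a log2 ratio of 1.91.

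The make-up of the Mup counts differed between the genotypes as well. Mup20 made up 89.8, 91.8 and 88.0% of the summed counts of the 10 genes in fl/fl 1, 2 and 3, and 30.6, 31.3 and 69.0% in HKO 1, 2 and 3. Mup3 made up 9.96, 7.99 and 11.8% in the control livers and 51.7, 64.8 and 29.6% in the SHMT2 HKO livers. Mup3 was thus the largest component of the counts in HKO 1 and HKO 2, while Mup20 remained the largest in HKO 3. Reads shared between genes were not counted. Windows of 150 bases found in no other gene made up 22.5% for Mup7, 68.9% for Mup20 and all for Mup3. The shares of the central genes may therefore be too low, and the make-up of the transcripts themselves is not known. Mup7 reached 10.4% of the sum in HKO 1, against 2.18% in HKO 2, 0.506% in HKO 3 and 0.0626 to 0.126% in control livers. The 95% Wilson intervals of these shares, which cover counting error alone, extended at most 0.267 percentage points from the share, far less than the spread between livers.

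**Figure D3:**
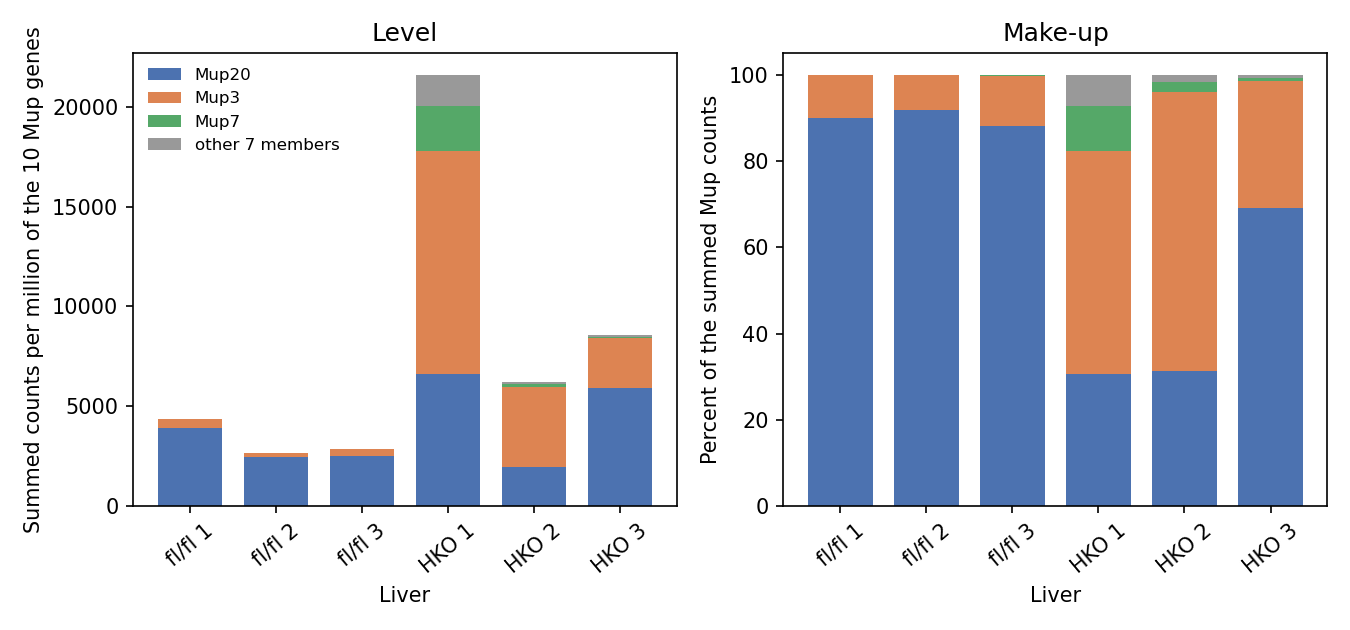
Left, summed CPM of the 10 Mup genes in each liver, stacked by gene on a linear axis from 0. Right, the same as percent of the sum, where Mup20 (blue) fills 88.0 to 91.8% of the 3 control bars and 30.6, 31.3 and 69.0% of the HKO 1, 2 and 3 bars.

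The rest of the array was measured in the same way. Of the 39 other annotated Mup genes and pseudogenes, 16 passed the filter on low counts, some of them only through the SHMT2 HKO livers, so their number called is not read against other genes. Of the 7 with at least 10 counts in every liver, 6 (Mup2, Mup14, Mup21, Mup22, Mup-ps13 and Mup-ps16) rose in edgeR's test and Mup-ps19 did not pass. Of all 16, edgeR called 14 higher and none lower, where 12.5% and 16.5% of all tested genes were called, and at an unadjusted p under 0.05 or by DESeq2 none was lower either. The count of 14 was 7 without fl/fl 2 and 6 without fl/fl 3. Many of these genes share sequence with the 10 genes, so their values too rest on the reads that hit a single gene. Another 7 had no count in any liver.

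The most abundant of them was Mup21, which lies beyond Mup3 at the end of the array. It measured 33.4, 16.7 and 17.7 CPM in fl/fl 1, 2 and 3, and 357, 86.9 and 59.7 CPM in HKO 1, 2 and 3, without overlap. Mup14 measured 9.16, 1.80 and 3.60 CPM in control livers and 290, 31.6 and 38.6 CPM in SHMT2 HKO livers, and Mup22 measured 9.48, 2.63 and 7.06 CPM against 104, 44.2 and 28.0 CPM. Both showed HKO 1 as the highest and no overlap. The pseudogene Mup-ps19, which holds all windows that Mup20 shares, measured 19.8, 13.8 and 9.83 CPM in control livers and 39.8, 13.6 and 30.7 CPM in SHMT2 HKO livers, overlapped between genotypes as Mup20 did and was not called, with a log2 fold change of 0.95 and an SE of 0.40.

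**Figure D4:**
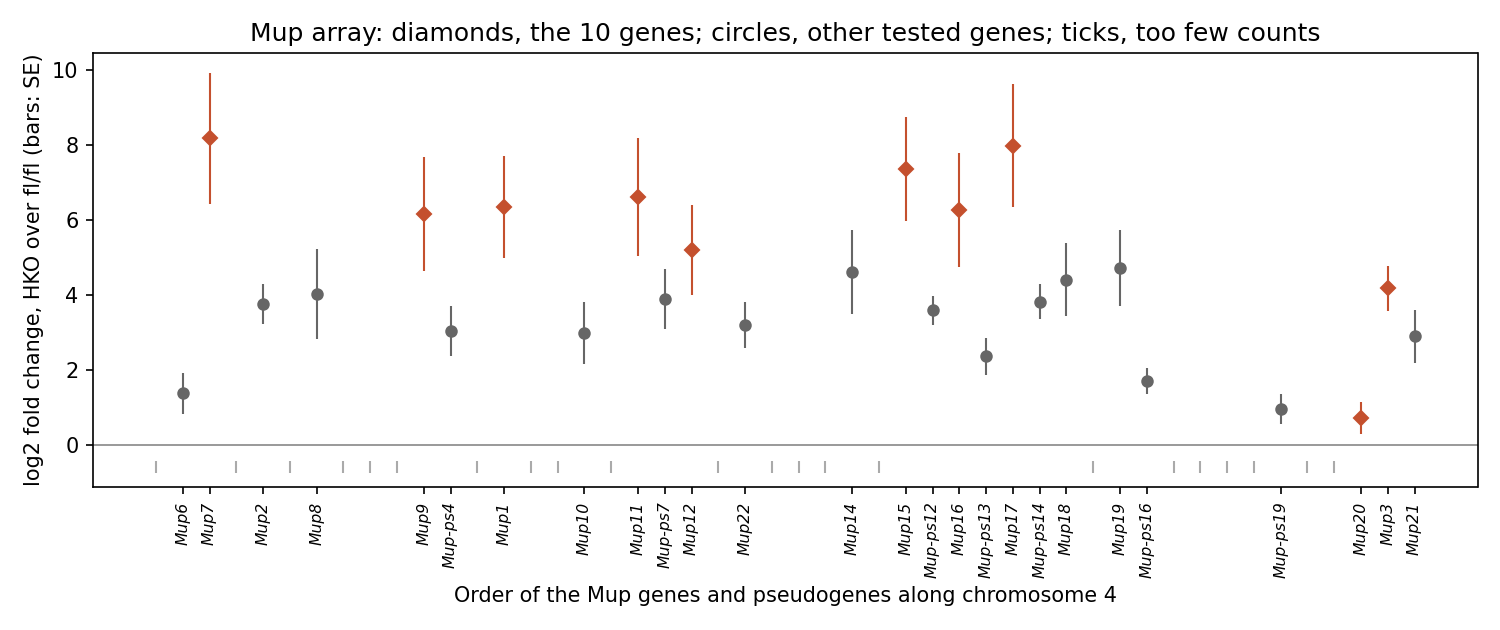
Log2 fold change, SHMT2 HKO over SHMT2 fl/fl, with SE, of the Mup genes and pseudogenes of chromosome 4 in their order along the array, where ticks mark entries with too few counts. The 8 central genes of the 10, which were chosen by their values, lie highest, from 5.19 for Mup12 to 8.18 for Mup7. Other protein-coding genes of the array lie lower, and Mup8 (4.01), Mup2 (3.75) and Mup10 (2.97) lie below Mup3 (4.17). Mup20 (0.70) and Mup-ps19 (0.95) lie lowest.

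The neighbours of the array moved in both directions. Of 30 protein-coding genes within 1 Mb of the outermost Mup genes, 24 were tested, 7 rose, 6 fell and 11 did not pass, with a median log2 fold change of 0.11. Those that rose most were Rgs3 (1.12 ± 0.15, adjusted p = 0.0018), a regulator of G-protein signalling, and Ambp (0.78 ± 0.23, adjusted p = 0.0362), the precursor of the lipocalin α1-microglobulin, followed by the copper transporter Slc31a1 (0.73 ± 0.15, adjusted p = 0.00961) and Alad (0.66 ± 0.16, adjusted p = 0.0202), an enzyme of haem synthesis, where values are log2 fold changes ± SE from edgeR. Bspry (-3.32 ± 0.41, adjusted p = 0.00152), Wdr31, Zfp618 and Ptgr1 were those that fell most. The count of neighbours that rose was 3 without fl/fl 1, fl/fl 2, fl/fl 3 or HKO 2. Of 16 alternative runs, Ambp lost its call in 9, Alad in 7, Slc31a1 in 2 and Rgs3 in 1. Over all tested genes 12.5% were called higher and 16.5% lower.

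MUPs were compared with other liver genes that are higher in male mice. This list and those that follow were chosen with earlier results of these data known, so their counts are a description. Of 15 such male-biased genes, 12 rose, none fell and 3 did not pass, with a median log2 fold change of 1.78. DESeq2 called 11 of them higher and limma-voom 10, and none was lower by either or at an unadjusted p under 0.05. Without HKO 1, edgeR called 11 higher and none lower. The log2 fold changes of Selenbp2 and Ugt2b38, 0.74 and 1.30 with all livers and not called, were then -0.71 and -0.13. With ERCC scaling that of Gstp1 was -0.18. Over all tested genes 12.5% were called higher and 16.5% lower. Hsd3b5, a male-specific hydroxysteroid dehydrogenase and like the central Mup genes nearly silent in control livers, measured 0.29, 0.53 and 0.39 CPM in fl/fl 1, 2 and 3 and 165, 2.93 and 5.62 CPM in HKO 1, 2 and 3 (log2 fold change 7.19 ± 1.90 SE, edgeR adjusted p = 0.032). HKO 1 was far above the rest here too, and without it the log2 fold change was 3.44 with an adjusted p of 0.000798. The call of Hsd3b5 was lost in 5 of 15 alternative runs, among them limma-voom (adjusted p = 0.173). Susd4, a complement regulator, rose by 4.08 ± 0.51 (adjusted p = 0.00196), the organic anion transporter Slco1a1 by 3.87 ± 0.57 (adjusted p = 0.00395) and the fatty acid elongase Elovl3 by 3.26 ± 0.42 (adjusted p = 0.00226) on the log2 scale in edgeR.

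Most genes that are higher in female liver did not pass the test. Of 22 listed, 18 were tested, 3 fell, 15 did not pass and none rose, with a median log2 fold change of -0.35. The 3 of 18 that fell are near the 16.5% of all tested genes called lower, and 12.5% of all were called higher. At an unadjusted p under 0.05 no listed gene was higher and 5 were lower, DESeq2 and limma-voom each called 4 lower and none higher, and without HKO 1 edgeR called 1 higher. Cyp2a4, a steroid hydroxylase, fell, with 83.6, 74.7 and 60.1 CPM in fl/fl 1, 2 and 3 and 1.06, 10.1 and 5.03 CPM in HKO 1, 2 and 3 (log2 fold change -3.77 ± 0.64 SE, edgeR adjusted p = 0.00642). Prom1 (-2.46 ± 0.29, adjusted p = 0.00136) and Fmo2 (-1.55 ± 0.47, adjusted p = 0.047) also fell. Fmo2 lost its call in 6 of 16 alternative runs. Prom1 is made by bile duct cells as well, whose 6 markers all fell.

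The growth hormone axis and the liver transcription factors that act on Mup promoters were examined as 22 genes, of which 10 rose, 1 fell (2 without HKO 1) and 11 did not pass, with a median log2 fold change of 0.37. Over all tested genes 12.5% were called higher and 16.5% lower. Among the receptors, Ghr, the growth hormone receptor, rose from 203 ± 10.5 to 449 ± 64.6 CPM (SD, n = 3; log2 fold change 1.15 ± 0.15 SE, edgeR adjusted p = 0.00211), and Prlr, the prolactin receptor, rose by 1.60 ± 0.41 (adjusted p = 0.0253). Stat5b measured 47.9 ± 1.23 CPM in control and 54.2 ± 4.12 CPM in SHMT2 HKO livers and did not pass (edgeR adjusted p = 0.245). Among the STAT5 targets, Cish rose by 1.52 ± 0.28 on the log2 scale (adjusted p = 0.00677), Igf1 by 0.53 ± 0.17 (adjusted p = 0.0422), and Socs2 measured 0.27 ± 0.21 and did not pass (adjusted p = 0.378). Of 16 alternative runs, Igf1 lost its call in 11 and Prlr in 5. Without HKO 1 the edgeR adjusted p of Igf1 was 0.0842. Bcl6, a male-enriched repressor that opposes STAT5 mainly at female-biased genes, measured -0.28 ± 0.28 (edgeR adjusted p = 0.484). This result depended on HKO 1, which at 39.98 CPM lay above every control liver (28.98 to 39.46 CPM). HKO 2 and HKO 3, at 18.46 and 22.84 CPM, lay below every control liver. Bcl6 was the further gene that fell without HKO 1, with a log2 fold change of -0.67 (edgeR adjusted p = 0.0216). Onecut1 (HNF6) rose most, by 2.42 ± 0.27 (adjusted p = 0.00127), and Socs1, an inhibitor of cytokine signalling, fell by 1.43 on the log2 scale (edgeR adjusted p = 0.00634).

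Other lipocalins, which share the protein fold, were tested for 10 of 11 genes, and 5 rose, none fell and 5 did not pass (median log2 fold change 0.78). These 5 were Orm3 (1.97 ± 0.37, adjusted p = 0.00672) and Orm1 (1.24 ± 0.35, adjusted p = 0.033), which encode acute-phase carriers, C8g (1.08 ± 0.24, adjusted p = 0.0127), Rbp4 (0.78 ± 0.21, adjusted p = 0.0275), the retinol carrier of plasma, and Ambp, given above, as log2 fold changes ± SE from edgeR. At an unadjusted p under 0.05 none was lower, and neither DESeq2 nor limma-voom called one lower. The shares called over all tested genes were 12.5% higher and 16.5% lower. The count that rose was 1 without fl/fl 1 or fl/fl 2, 2 without fl/fl 3 or HKO 2, and 1 lipocalin was called lower without HKO 1. Of 16 alternative runs, Ambp lost its call in 9, Orm1 in 7, Rbp4 in 7, C8g in 3 and Orm3 in 1.

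**Figure D5:**
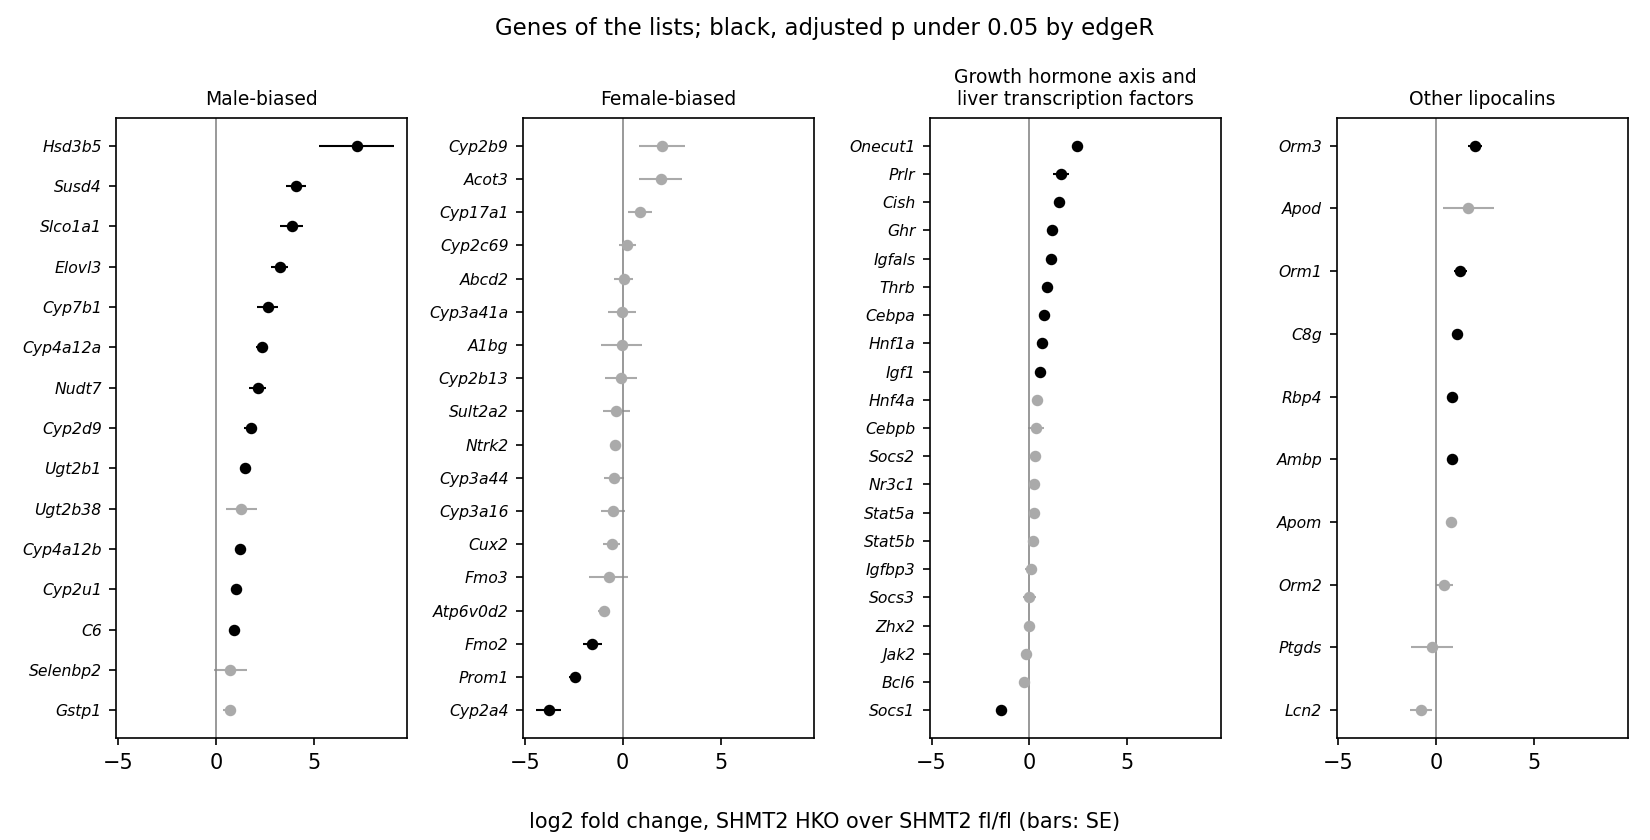
Log2 fold change, SHMT2 HKO over SHMT2 fl/fl, with SE, of the tested genes of 4 lists, 1 gene left out, black where the edgeR adjusted p was under 0.05 and grey otherwise. All 15 male-biased genes lie above 0, and 5 of 18 female-biased genes do. In a run without HKO 1, not drawn, Selenbp2 (-0.71) and Ugt2b38 (-0.13) of the male-biased genes were below 0. The lists were chosen with earlier results of these data known.

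The calls in these lists depended on the scaling. Library size alone shifted the median log2 fold change of all genes by -0.42 and ERCC scaling by -0.72, and called 538 genes higher and 4919 lower, and 107 higher and 2759 lower, in place of 2012 and 2651. With ERCC scaling 9 of the 10 Mup genes and 6 male-biased genes were still called higher, but 1 gene of the growth hormone axis and no neighbour of the array. The log2 fold change of Igf1 was then -0.26, that of Ambp -0.07 and that of Stat5b -0.50, while that of Ghr was 0.36.

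The genes whose levels followed those of the 10 summed Mup genes most closely over the 6 livers were sought among 12577 genes by the root mean square difference of centred log2 CPM. They were Kcna2 (0.20), Exd1 (0.24), Disp2 (0.26), Efr3b (0.29), Caln1 (0.30), Saa3 (0.30), Adh6-ps1 (0.30) and Cyp21a1 (0.32), where 0 would be an identical course. Kcna2 measured 2.17, 0.98 and 1.33 CPM in fl/fl 1, 2 and 3 and 8.86, 3.39 and 3.22 CPM in HKO 1, 2 and 3. Most of these genes were low in every liver, and Adh6-ps1 was the most abundant, at 8.29 to 53.4 CPM. The 9 genes without Mup20 had other neighbours, none of them as close, led by Snhg11 (0.44), Sult2a8 (0.55), Susd4 (0.56) and Slco1a1 (0.65). Sult2a8, a sulfotransferase, measured 11.5, 7.10 and 8.06 CPM in control livers and 425, 233 and 174 CPM in HKO 1, 2 and 3, in the same order of livers as Mup3.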

How the data were processed

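The authors prepared liver RNA libraries with ERCC spike-ins, sequenced paired reads, trimmed them with Trimmomatic 0.36, aligned them to GRCm38 with STAR 2.5.2b and counted unique gene hits with featureCounts from Subread 1.5.2 (versions from the submitters' processing notes; use of strand was not given in the sources used here). The deposited values are raw counts per gene in 6 libraries, with 49671 genes and 92 ERCC rows, the latter left out of library sizes and tests. Gene positions and transcripts came from GENCODE M21 on GRCm38, in which 259 identifiers had no entry, and promoters from RefSeq on GRCm38.p6, with 4 of the 10 genes unmatched (Mup1, Mup12, Mup16 and Mup20).

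From the counts, edgeR 4.0.16 in R 4.3.3 (filterByExpr, TMM, robust quasi-likelihood F test, two-sided, Benjamini-Hochberg over 16089 genes, called at an adjusted p under 0.05) compared 3 SHMT2 HKO with 3 SHMT2 fl/fl livers. SEs are the absolute log2 fold change over the square root of F. CPM use TMM-scaled library sizes. The Mup genes and all lists were chosen with earlier results of these data known. Named genes were the 10 Mup genes, the 4 other Mup entries with most counts, up to 4 called genes of each list and direction by size of change, Hsd3b5, Ghr, Stat5b, Igf1, Socs2 and Bcl6, the 8 nearest genes by course, and Shmt2. Coding sequences were aligned globally with Biopython 1.88, using for each gene the principal CCDS transcript with the shortest coding sequence. Alternatives were DESeq2 1.42.0, limma-voom (limma 3.58.1), other scalings and filters, a replicate block and leaving out each liver. The growth hormone axis list holds 1 gene that enters its counts and is not reported here by name. The script was tested on simulated counts. Libraries of a genotype differed by far more than sampling noise, and same-numbered livers of the 2 genotypes did not deviate together (correlations of -0.05, 0.01 and -0.08).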

Additional observations from a re-analysis of the deposited data

How the results depend on the processing

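The 10 Mup genes kept a positive log2 fold change in every alternative run, and in 149 of 156 values it moved by less than the spread between livers. The 7 exceptions were Mup1, Mup7, Mup9, Mup11, Mup15, Mup16 and Mup17 without HKO 1. Of the 10 genes, 9 were called higher by the reported test, 5 by DESeq2, 4 by limma-voom, 1 with no filter on low counts, 5 with a minimum of 10 counts in every library, 5 among genes with 10 counts in every library, and 1 to 10 when each liver was left out. The log2 ratio of the summed counts was 1.88, 4.45 for the 9 genes without Mup20 (added after seeing the data, and 3.37 to 4.81 for these 9 when each liver was left out) and 1.17 to 2.19 when each liver was left out.

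Calls over all genes numbered 4663, 2866 with ERCC scaling and 2426 (without fl/fl 3) to 5597 (without HKO 3) when each liver was left out. Other Mup genes called higher numbered 14, 9 with no filter, 6 with the minimum of 10 counts and 6 to 15 when each liver was left out. With ERCC scaling 6 male-biased genes were higher in place of 12, 1 growth hormone axis gene in place of 10, 0 lipocalins in place of 5 with 1 lower, and 0 neighbours in place of 7. With library size alone the counts were 6 growth hormone axis genes, 2 lipocalins and 1 neighbour higher and 5 female-biased genes lower in place of 3, and with upper-quartile scaling 4 neighbours higher and 5 female-biased genes lower. When each liver was left out, 0 to 1 female-biased genes were higher, 1 to 2 growth hormone axis genes lower, 1 to 6 lipocalins higher and 0 to 1 lower, and 3 to 6 neighbours higher; the cause was not tested.

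The replicate numbers do not pair the livers. With a replicate block, the log2 ratio of the sum was 1.70, 9 Mup genes were called higher, and 3584 genes were called in place of 4663. The replicate block gave 1 female-biased gene higher, 3 lipocalins higher and 1 lower, and 4 neighbours higher. Depth limits Mup1, Mup9, Mup12 and Mup16, whose control libraries held as few as 1 count.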
